A study of Mus musculus with 8 samples.

Results

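Homeostatic microglia identity genes are genes used to recognise the resident immune cells of the brain. Some of those considered here, such as Csf1r, Aif1 and Spi1, are also expressed by other macrophages. The genes considered here, and the lists below, were chosen with earlier results of these data known. The 10 genes were taken by name: Tmem119, Cx3cr1, Csf1r, Sall1, Siglech, Gpr34, Fcrls, Olfml3, Spi1 and Aif1. Of these, 9 matched a gene name in both deposited tables, with the same gene identifier in each, among the 31406 genes of the table that holds both treated groups. The expression of Siglech, which encodes a sialic acid-binding lectin, was not analysed here, and only its promoter sequence was read. All 9 passed the low-count filter, which left 18756 genes.

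The libraries came from primary cultures of wild-type mouse microglia, prepared from the striatum of neonatal C57/BL6 pups and kept for 15 days before activation. Activation lasted 48 h in all 8 samples and used lipopolysaccharide (LPS) together with interferon-γ (IFN-γ). Ligands were added at 24, 32 and 40 h. The meninges were removed before culture, and 4 pregnant animals supplied the pups of the whole study, with no statement of which animal gave which library. By their titles, 4 libraries received SCH 58261, an antagonist of the adenosine A2A receptor (A2A antagonist group), and 4 received SCH 58261 with 200 nM 2-Cl-IB-MECA, an agonist of the adenosine A3 receptor (dual group). A second label, on treatment, instead names 2-Cl-IB-MECA for the first group and omits it for the second, so that every direction given here rests on the titles and on the names of the count columns. LPS, IFN-γ and SCH 58261 were common to both groups, and the libraries can therefore show only what differed when 2-Cl-IB-MECA was added. Libraries of activated cells with vehicle carry no sample of this series and were not used here. The labels do not say whether replicates were separate cultures, and p-values then measure only the spread between these libraries.

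Microglia depend on signals from their surroundings for survival and identity. The receptor encoded by Csf1r keeps them alive when it binds its ligands CSF1 and IL-34, the receptor encoded by Cx3cr1 binds the neuronal chemokine fractalkine, and transforming growth factor-β maintains much of the homeostatic gene programme. The transcription factor PU.1, encoded by Spi1, is required for the whole myeloid lineage, whereas Sall1 encodes a repressor that, among macrophages, is typical of microglia. Many of these genes are known to decline when microglia are cultured or exposed to inflammatory stimuli.

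Total counts ranged from 32630602 to 45878639 per library. Levels are given as CPM, the counts of a gene per 1000000 counts of the library scaled with TMM factors, and levels of different genes are compared only as CPM per kilobase of gene length. Differences were tested for all 18756 genes with the quasi-likelihood test of edgeR, with Benjamini-Hochberg adjustment over all of them, and a gene is called at an adjusted p-value under 0.05.

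None of the 9 identity genes was called, against 0.208% of all genes tested (39 genes). The differences measured were small, with 7 genes lower and 2 higher in the dual group. The lowest p-values belonged to Fcrls and Aif1, which had lower means in the dual group (20.2% and 13.4% lower), and to Csf1r, which had a higher mean (7.81% higher). These 3 had an unadjusted p-value under 0.05, compared with 12.8% of all genes. The other 6 had p-values from 0.0556 to 0.990. The groups did not overlap for 2 of the 9 genes (Fcrls and Csf1r), compared with 7.42% of all genes tested. The median log2 fold change of the 9 genes was -0.05, and that of all genes tested was 0.0038. Summed over the 9 genes, the level was 563 to 588 CPM in the A2A antagonist libraries and 561 to 578 CPM in the dual libraries. In bulk RNA, fewer cells of a type and less RNA per cell cannot be told apart.

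**Figure D1:**
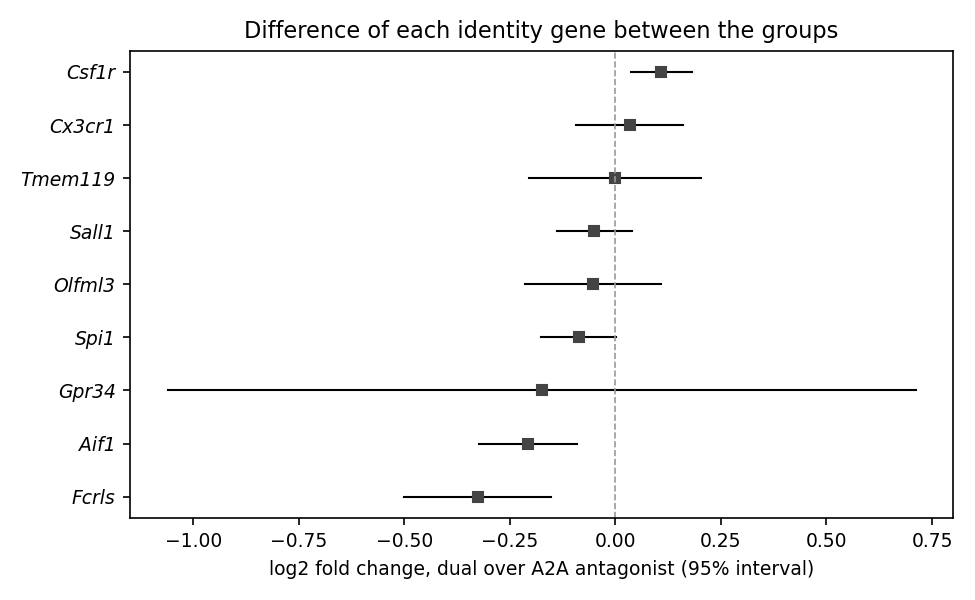
Log2 fold change of each identity gene, dual group over A2A antagonist group, from edgeR (squares) with its 95% interval (lines); n = 4 libraries per group. The interval lies below 0 for Fcrls and Aif1 and above 0 for Csf1r, none of which passed adjustment over all genes, and that of Gpr34, with 4 to 19 counts per library, runs from -1.06 to 0.71.

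The levels per length spanned a wide range. In order of their mean over the 8 libraries, they were 46.3 ± 2.29 CPM per kilobase (SD, n = 8) for Csf1r, 35.8 ± 3.59 for Aif1, 32.4 ± 1.77 for Spi1, 20.8 ± 1.72 for Cx3cr1, 12.7 ± 2.03 for Fcrls, 12.02 ± 0.504 for Sall1, 3.20 ± 0.318 for Tmem119, 1.53 ± 0.0967 for Olfml3 and 0.128 ± 0.0545 for Gpr34. Neighbours in this order kept their order in each of the 8 libraries, except Aif1 over Spi1 (7 libraries) and Fcrls over Sall1 (5 libraries), whose ranges overlapped. Csf1r, Aif1 and Spi1 lay above 94.4%, 92.3% and 91.4% of all genes tested, whereas Tmem119, the surface protein most used to mark resident microglia, lay above 46.2% and Gpr34 above 4.77%. Csf1r, Aif1 and Spi1, which other macrophages also express, were thus the most abundant of the list. The level of Olfml3 was divided by a deposited gene length of 6161 bases, while the RefSeq gene (GRCm38.p6) spans 2608 bases including introns. A shorter gene model would raise its level per length, and the place of Olfml3 below Tmem119 rests on the deposited length.

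**Figure D2:**
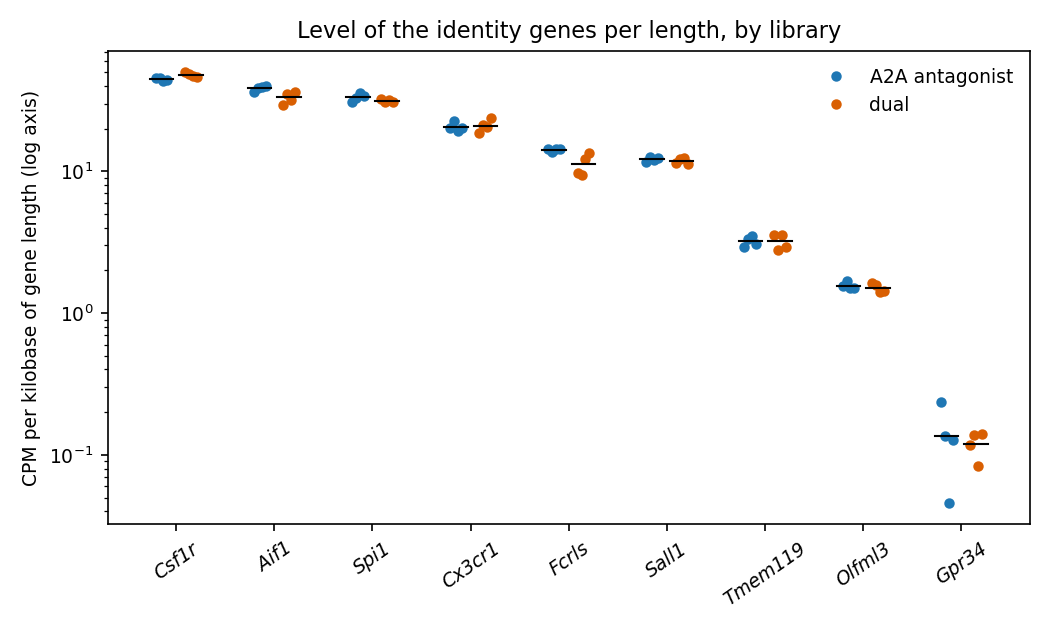
Level of the 9 identity genes as CPM per kilobase of gene length on a log axis, each point 1 library and each black bar the mean of 4 libraries. Csf1r is the most abundant at 46.3 and Gpr34 the least at 0.128 CPM per kilobase, and both groups share this order except that the mean of Fcrls lies below that of Sall1 in the dual group (11.2 against 11.8).

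The letters before the starts of the identity genes were read for the motif of PU.1, the product of Spi1. The RefSeq promoter table (GRCm38.p6) held 8 promoters of 6 of the 10 genes, Siglech among them, and the 250 bases before each start were searched on both strands for GAGGAA, the core of the purine-rich box that PU.1 binds. The motif occurred in 2 of the 8 promoters (25.0%), those of Fcrls and Aif1, and in 23.3% of all 32851 promoters. Csf1r, Spi1, Tmem119 and Gpr34 had no entry. The composite element of PU.1 with an interferon regulatory factor occurred in none of the 8 and in 2.30% of all. The 2 matches of GAGGAA, the only ones found, are shown, each with the 30 bases that hold it. Capitals mark GAGGAA or its reverse complement, and the sequences run 5′ to 3′ on the strand of the gene. The starts are those of RefSeq transcripts, and the Fcrls window and part of the Aif1 window lie within the deposited gene bodies.
Fcrls, chr3:87263651-87263680, minus strand, 144 bases before the start: caagtctgtaaaGAGGAAggacgtttgctt
Aif1, chr17:35176053-35176082, minus strand, 7 bases before the start: tagccgtggtgataggcacccagTTCCTCc
A match describes these letters only, and no binding was measured.

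The receptors were examined first. Fcrls (ENSMUSG00000015852, chromosome 3, 87250758 to 87263738, mm10) encodes a scavenger receptor related to Fc receptors that is used as a microglial marker in mice. Its levels were 33.4, 31.7, 33.6 and 33.4 CPM in A2A antagonist replicates 1 to 4 and 22.9, 22.0, 28.6 and 31.5 CPM in dual replicates 1 to 4. All dual libraries thus lay below all A2A antagonist libraries, but replicate 4 only just, and replicates 1 and 2 were far below the others. The mean was 33.1 ± 0.903 CPM (SD, n = 4) against 26.2 ± 4.57 CPM (SD, n = 4). On the log2 scale the difference was -0.33 (SE 0.08, adjusted p-value 0.0952 by edgeR). The coefficient of variation was 2.73% in the A2A antagonist group and 17.4% in the dual group, the latter the widest of the list apart from Gpr34. The dual libraries with the lowest Fcrls were also the shallowest of their group, with total counts of 32630602 and 38043053, and the part of depth in the difference was not tested. Without dual replicate 4 Fcrls was called (log2 fold change -0.43, adjusted p-value 0.0318 in edgeR, where 0.258% of all genes were called).

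Csf1r (ENSMUSG00000024621, chromosome 18, 61105572 to 61132149) went the other way. Its levels were 221, 223, 211 and 216 CPM in the A2A antagonist libraries and 244, 239, 231 and 226 CPM in the dual libraries. Each dual library lay above each A2A antagonist library, by a small margin. The mean was 217.9 ± 5.47 CPM (SD, n = 4) against 234.9 ± 8.18 CPM (SD, n = 4). On the log2 scale this is 0.11 higher (SE 0.03, adjusted p-value 0.171 by edgeR). In the GENCODE annotation 873 of the 5774 exonic bases of Csf1r overlap Hmgxb3, which is read from the other strand. The coordinates of Csf1r there differ from the deposited ones, and its deposited length is 4885 bases. Of the 31-base words of Csf1r 14.9% are also found elsewhere, chiefly in Hmgxb3, so that its count is uncertain if strand was not used in counting.

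Cx3cr1 (ENSMUSG00000052336, chromosome 9, 119901616 to 120069879) had 91.5, 101.2, 86.8 and 91.1 CPM with the antagonist and 83.3, 96.3, 92.2 and 107.3 CPM with both ligands. The groups overlapped over nearly their whole range, the lowest and the highest library both belonging to the dual group. The log2 fold change was 0.03 (SE 0.06), with a 95% interval from -0.09 to 0.16, and it turned to -0.03 without dual replicate 4. Several other genes lie within the long gene body of Cx3cr1, but its exons share only 78 bases with another gene (Gm33858, opposite strand).

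Gpr34, which encodes a receptor for lysophosphatidylserine (ENSMUSG00000040229, chromosome X, 13632089 to 13640858), was at the edge of detection. Its counts were 19, 13, 4 and 12 with the antagonist alone, and 8, 11, 8 and 13 with both ligands. The dual libraries lay within the range of the A2A antagonist libraries. The 95% interval of the log2 fold change ran from -1.06 to 0.71, and a difference inside it was not detectable at this depth. The fold change of -0.17 turned to 0.19 without A2A antagonist replicate 1.

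**Figure D3:**
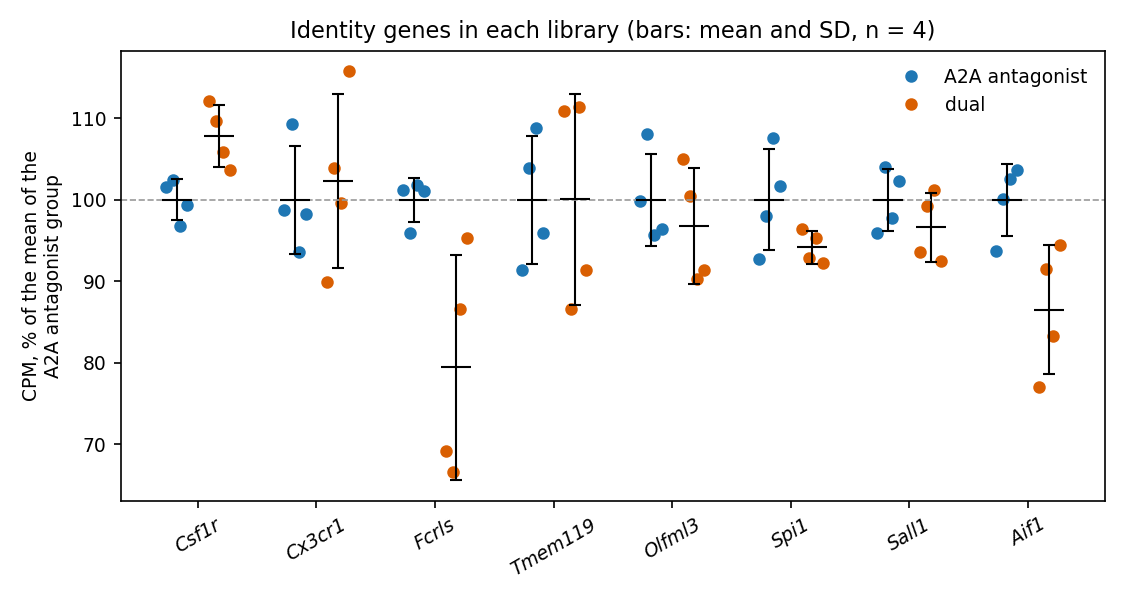
CPM of 8 identity genes in each library as a percentage of the mean of the A2A antagonist group, with mean and SD of 4 libraries; Gpr34 is left out for its low counts. The dual libraries lie below the A2A antagonist libraries for Fcrls and above them for Csf1r, and for the other 6 genes the groups overlap, for Aif1 and Spi1 through A2A antagonist replicate 1 alone.

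A membrane protein and a secreted protein served as further markers. Tmem119 (ENSMUSG00000054675, chromosome 5, 113793729 to 113800516), a membrane protein found in the brain on resident microglia, had 6.77, 7.70, 8.06 and 7.11 CPM with the antagonist and 8.21, 6.41, 8.26 and 6.77 CPM with both ligands. The groups overlapped and both means were 7.41 CPM, with a 95% interval of the log2 fold change from -0.21 to 0.20. Olfml3 (ENSMUSG00000027848, chromosome 3, 103722222 to 103738001), which encodes a secreted olfactomedin-domain glycoprotein, had 9.59, 10.4, 9.19 and 9.27 CPM and then 10.1, 9.65, 8.67 and 8.77 CPM. The groups overlapped, with a log2 fold change of -0.05 (SE 0.08, 95% interval from -0.21 to 0.11).

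The transcription factors differed little. Spi1 (ENSMUSG00000002111, chromosome 2, 91082390 to 91115756) had 83.4, 88.1, 96.7 and 91.4 CPM with the antagonist and 86.7, 83.4, 85.6 and 82.9 CPM with both ligands. Only A2A antagonist replicate 1 lay within the range of the dual libraries. The log2 difference of Spi1 was -0.09 (SE 0.04, unadjusted p-value 0.0556, adjusted 0.407 by edgeR). Sall1 (ENSMUSG00000031665, chromosome 8, 89027235 to 89044162) had 61.7, 66.9, 63.0 and 65.9 CPM and then 60.3, 63.9, 65.1 and 59.5 CPM. Its groups overlapped, with a log2 fold change of -0.05 (SE 0.04, 95% interval from -0.14 to 0.04).

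Aif1 (ENSMUSG00000024397, chromosome 17, 35170991 to 35176068) encodes IBA1, the actin-binding protein by which microglia are most often stained. Its levels were 55.2, 58.9, 60.3 and 61.0 CPM with the antagonist and 45.3, 53.9, 49.0 and 55.6 CPM with both ligands. A2A antagonist replicate 1 fell just below dual replicate 4, so that the groups overlapped by 1 library on each side. The mean was 58.9 ± 2.61 CPM (SD, n = 4) against 50.9 ± 4.67 CPM (SD, n = 4). The log2 difference was -0.21 (SE 0.06, adjusted p-value 0.110 by edgeR). Fcrls and Aif1 share no 31-base word with another gene and no exonic base with an annotated one.

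The call of Fcrls and Aif1 depended on the test. In the DESeq2 Wald test both were called (adjusted p-values 0.0137 and 0.0224), among 3.37% of the genes given an adjusted value, and without the low-count filter both were called in edgeR (0.000923 and 0.00817), among 1.17% of all genes. Csf1r was called in neither (0.0557 and 0.198). The direction of Fcrls, Aif1 and Csf1r was the same under every alternative run.

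Other genes of the homeostatic programme were read from a list of 28, of which 27 were tested. None was called by edgeR, against 0.208% of all genes tested. DESeq2 gave an adjusted value to 20 and called 1 (Cd33), against 3.37% of all genes given one. In edgeR 3 passed 0.05 without adjustment, compared with 12.8% of all genes tested. In the dual group 13 had a higher and 14 a lower value, with a median log2 fold change of -0.0013. The most abundant per length were Cst3 (cystatin C, 845.5 CPM per kilobase, log2 fold change -0.06) and Lgmn (the lysosomal protease legumain, 97.9 CPM per kilobase, -0.06). Cst3 alone had 1091 CPM in the A2A antagonist group, where the list summed to 2605 to 2727 CPM. The receptor genes P2ry12 and P2ry13, which sense nucleotides and were named after their values were seen, stood at 0.720 and 0.399 CPM per kilobase, and the fructose transporter gene Slc2a5 had at most 5 counts in a library and was at 0 in 2. Low levels were thus not limited to Gpr34. Cd33, a sialic acid-binding receptor also named after its values were seen, had 60.5 CPM with the antagonist and 70.2 CPM with both ligands, without overlap (log2 fold change 0.22, SE 0.05, adjusted p-value 0.0606 by edgeR).

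Ligands and partners of the identity genes were present in the same libraries. Csf1, which encodes the ligand of the Csf1r product, was at 217 CPM per kilobase, with 1189 CPM in the A2A antagonist group and 1106 CPM in the dual group (log2 fold change -0.10, SE 0.03, adjusted p-value 0.196 in edgeR). Il34, the other ligand gene, was at 5.62 CPM per kilobase with a log2 fold change of -0.08. Tyrobp, the adaptor through which several microglial receptors signal, was at 110.0 CPM per kilobase (-0.09). Of the 8 genes of the CSF1R list edgeR called 0 and DESeq2 called 1 (Cbl, an adaptor that ubiquitinates the receptor, higher in the dual group). Without adjustment 3 passed 0.05, compared with 12.8% of all genes tested, and 6 had a lower value, with a median of -0.07.

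Cx3cl1, which encodes fractalkine, had 120.4 CPM and 107.1 CPM (log2 fold change -0.17, SE 0.05, adjusted p-value 0.130 in edgeR) at 28.9 CPM per kilobase. In its list of 4, edgeR called 0 with 1 passing 0.05 before adjustment, against 12.8% of all genes tested, and DESeq2 called 1 (Cx3cl1, lower). The most abundant were Ctss (cathepsin S, 228 CPM per kilobase, log2 fold change -0.06) and Adam10 (a sheddase, 31.6 CPM per kilobase, 0.02). Tgfb1 had a log2 fold change of -0.12 (SE 0.04, adjusted p-value 0.246 in edgeR) at 11.1 CPM per kilobase. Among the 10 genes of the TGF-β list edgeR and DESeq2 called 0, 2 passed 0.05 before adjustment and the median was -0.0012, with Ski (44.2 CPM per kilobase, 0.02) and Itgb8 (31.8 CPM per kilobase, 0.0070) the most abundant. Of 15 transcription factor genes of microglia edgeR and DESeq2 called 0, 3 passed 0.05 before adjustment and the median was 0.05, with Cebpb (148 CPM per kilobase, -0.08) and Bhlhe40 (21.9 CPM per kilobase, -0.09) the most abundant.

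A called gene was found among general markers of microglia and macrophages. In this list of 10, which includes Itgam, Ptprc, Cd68 and the C1q genes, 8 had a lower value in the dual group. The median log2 fold change was -0.08. Before adjustment 4 passed 0.05, against 12.8% of all genes tested. edgeR called 1, against 0.208% of all genes tested. DESeq2 called 4 (C1qa, C1qb, C1qc and Fcer1g), each lower, against 3.37% of all genes given an adjusted value. The called gene was C1qa (complement C1q A chain), with 434, 487, 482 and 502 CPM in the A2A antagonist libraries and 386, 406, 408 and 412 CPM in the dual libraries, without overlap. It fell by 0.24 on the log2 scale (SE 0.04, adjusted p-value 0.0240 by edgeR), and the adjusted p-value was 0.0648, 0.0791 and 0.0932 without A2A antagonist replicates 2, 3 and 4 and 0.0650 without dual replicate 3. Fcer1g, a signalling chain of Fc receptors named after its values were seen, had 150.3 CPM and 133.2 CPM without overlap (-0.17, adjusted p-value 0.0606). The summed level of this list was 1838 to 2017 CPM in the A2A antagonist group and 1739 to 1827 CPM in the dual group. These sums did not overlap, and most of their difference lay in the C1q genes. Without C1qa, C1qb and C1qc, a set chosen after the values were seen, the other 7 genes summed to 894 to 956 CPM and 887 to 923 CPM, which overlapped. The part of these markers in the values of Fcrls and Aif1 was not tested. Itgam (CD11b), by which the study judged purity, differed by 0.04 (SE 0.04) on the log2 scale, and Ptprc (CD45) by 0.05 (SE 0.05).

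**Figure D4:**
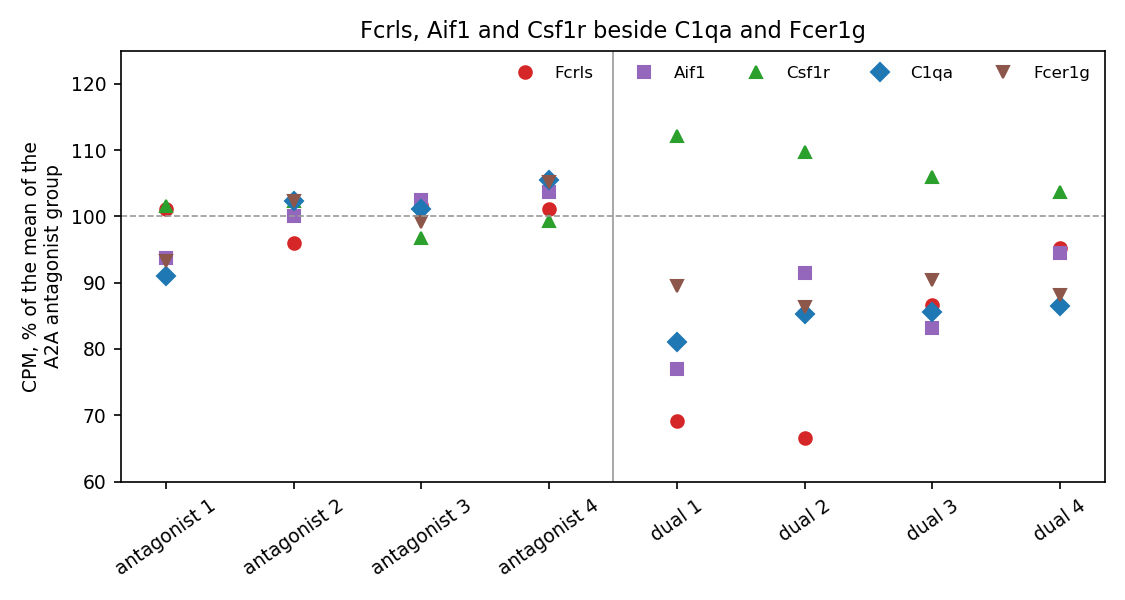
CPM of Fcrls, Aif1 and Csf1r, and of the general myeloid genes C1qa and Fcer1g, in each library as a percentage of the mean of the A2A antagonist group. C1qa and Fcer1g lie within a narrow band in the dual libraries, whereas Fcrls differs between them, from 22.0 to 31.5 CPM.

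The label of the cultures was checked against markers of other cells. Astrocyte markers summed to 7113 to 7413 CPM in the A2A antagonist libraries and 7167 to 7643 CPM in the dual libraries. Summed per length, the 9 astrocyte markers stood at 1397 to 1485 CPM per kilobase over all libraries and the 10 general microglia and macrophage markers at 1251 to 1499, so that these ranges overlapped. The highest astrocyte genes were Gfap, the main astrocyte filament gene (393 CPM per kilobase), and Mlc1 (305), and the highest of the microglia and macrophage list were C1qa (423) and Ctss (228), with Itgam at 25.3. Fibroblast markers, led by Dcn (96.0 CPM per kilobase) and Col3a1 (78.2), summed to 2260 to 2539 and 2265 to 2879 CPM. Oligodendrocyte lineage markers, led by Olig1 (120.2 CPM per kilobase) and Olig2 (44.8), summed to 689 to 731 and 649 to 691 CPM. RNA of genes that mark other brain cells was thus present beside that of microglial genes in libraries labelled as microglia. Of 9 astrocyte, 8 oligodendrocyte and 6 fibroblast markers edgeR called 0. Before adjustment 4, 1 and 3 passed 0.05, against 12.8% of all genes tested. DESeq2, which gave an adjusted value to 9, 6 and 5 of them, called 1, Olig1 (log2 fold change -0.14 in edgeR, adjusted p-value 0.157). All 6 fibroblast markers had a higher value in the dual group (median 0.11) and 7 of 8 oligodendrocyte markers a lower one (median -0.05). The part of other cell types in the values of the identity genes, Fcrls, Aif1 and Csf1r included, and of the other homeostatic genes was not tested.

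Markers of border and blood-derived macrophages included several near the limit of detection. Ly6c2 was at 0 counts in 5 libraries, Lyve1 in 2 and Cd163 in 1, and Ccr2 had 1 to 7 counts, whereas Pf4 stood at 80.3 and Ms4a7 at 12.9 CPM per kilobase. The 8 genes summed to 122.3 to 153.3 CPM with the antagonist and 134.3 to 154.5 CPM with both ligands. Of the 4 tested edgeR called 0, and DESeq2 called 0 of the 3 it gave an adjusted value. In edgeR 3 had a higher and 1 a lower value in the dual group (median log2 fold change 0.24). Before adjustment 2 passed 0.05, Mrc1 (0.37) and Ms4a7 (-0.15), against 12.8% of all genes tested. Over both groups endothelial markers (led by Cdh5 and Kdr) summed to 47.8 to 61.1 CPM, mural markers (Acta2 and Cspg4) to 128 to 149, neuronal markers (Gad1 and Tubb3) to 46.1 to 50.9 and proliferation genes (Top2a and Cdk1) to 56.1 to 67.3. edgeR called 0 genes of these lists, and 2 mural markers passed 0.05 before adjustment, against 12.8% of all genes tested. DESeq2 also called 0, but gave an adjusted value to only 2 endothelial, 2 mural, 1 neuronal and 3 proliferation genes. The endothelial, mural and neuronal sums rested mainly on a few genes. In the A2A antagonist group Gad1 had 38.2 CPM and Syt1 6.83, whereas Snap25, Rbfox3 and Slc17a7 had 0.320, 0.146 and 0.211. Acta2 had 87.4 and Cspg4 44.1 CPM, against 0.713 for Rgs5 and 0.129 for Kcnj8, and Cdh5 had 33.5 CPM against 1.44 for Pecam1.

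**Figure D5:**
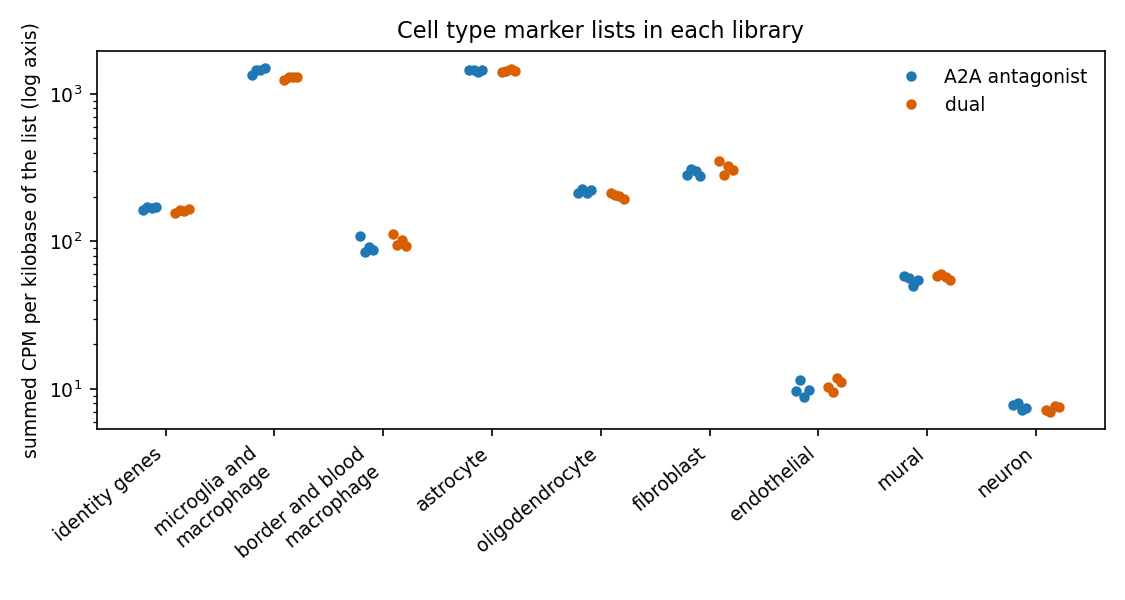
Summed CPM per kilobase of gene length of the identity genes and of 8 marker lists, on a log axis; each point is 1 library. The astrocyte list (1397 to 1485) and the general microglia and macrophage list (1251 to 1499) overlap at the top, and the identity genes sum to 157 to 171 CPM per kilobase.

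The genes whose pattern over the 8 libraries was nearest to the mean pattern of the identity genes were Pycrl, Gm10052, Chtf8, Atp5g1 and Rtl8b. Their root mean square distances on standardised log2 CPM were 0.198 to 0.269, among 11044 genes not on the list whose log2 CPM averaged 3 or more. Their adjusted p-values between the groups were 0.0839 to 0.323 by edgeR. The mean pattern was highest in A2A antagonist replicate 2 (0.633) and joined genes with opposite differences, such as Csf1r and Fcrls. Among so many candidates some genes are always near, and shared regulation was not tested.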

How the data were processed

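Primary mouse microglia were profiled by RNA sequencing in 8 libraries. According to the study's methods and the submitters' processing notes, the authors aligned paired-end reads with HISAT2 to an Ensembl mouse genome (mm10 in the notes) and counted them per gene with featureCounts 1.5.0-p3, with the strand setting not given in the sources used here. The deposited raw counts were used for all tests. The deposited FPKM, which the authors computed from counts, gene length and depth, served only as an alternative level. Columns holding the authors' own comparisons (fold change and significance) were left out, as were 9 columns of 3 control libraries, which carry no sample of this series. The 30302 genes in both tables had identical antagonist counts (0 differing values).

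Genes were filtered with filterByExpr (minimum count 10), scaled with TMM and tested with edgeR 4.0.16 (quasi-likelihood F test, two-sided, Benjamini-Hochberg adjustment over all genes) in R 4.3.3, with no covariate. Standard errors were derived from the F statistics. CPM per kilobase used the deposited gene length. Alternatives were DESeq2 1.42.0, RLE scaling, no filter, a replicate block and leaving out each library. Depth was 32630602 to 45878639 counts, and the chi-square per degree of freedom between libraries of a group was 3.82 to 9.50, so that none was a copy of another. The fit was tested on simulated data with 200 changed genes and a common dispersion shared by all genes. The log2 changes set there were all larger than the largest of the identity genes (0.33). The simulation therefore cannot say how often changes as small as theirs would be called. The members and lists were chosen with earlier results of these data known. Named genes are all members and, of each list, the called genes, the 2 most abundant per length and the ligands or partners Csf1, Il34, Cx3cl1, Tyrobp and Tgfb1. Other named genes fall outside this rule and were named after their values were seen. These include P2ry12, Cd33, Fcer1g, Mrc1 and Syt1, and the low markers of the border macrophage, endothelial, mural and neuronal lists. Genes nearest in pattern were the 5 with the smallest distance to the members' mean standardised profile.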

Additional observations from a re-analysis of the deposited data

Results flagged for a closer look

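In 1 of 18 sets of 4 libraries (9 genes in 2 groups) a library stood apart by the size of its gap to the nearest one. Fcrls had 31.7 CPM in replicate 2 of the A2A antagonist group, where the others had 33.4 to 33.6 CPM. Chance alone marks about 1 in 20 such sets.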

How the results depend on the processing

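Of 108 values of the 9 identity genes under 12 alternatives, 97 kept their direction and side of the threshold. Gpr34 in DESeq2, which was given no adjusted value, is counted there by its direction alone. With 0 members called in edgeR, 2 (Fcrls and Aif1) were called by DESeq2 and 2 without the low-count filter, and leaving out 1 library gave 0 to 1. Calls over all genes were 381 with DESeq2 (2311 at an unadjusted p-value under 0.05), 366 without the filter and 17 with the replicate block, and leaving out 1 library gave 0 to 172. Of the other homeostatic genes 1 (Cd33) was called by DESeq2 and 1 without the filter, and 0 to 1 when leaving out a library. The causes were not tested. Log2 fold changes that crossed 0 on leaving out 1 library ranged from -0.064 to 0.060 for Tmem119 (above 0 on dropping replicate 2 or 3 of the antagonist group, or 2 or 4 of the dual group), from -0.031 to 0.089 for Cx3cr1 (below 0 without dual replicate 4) and from -0.46 to 0.19 for Gpr34 (above 0 without A2A antagonist replicate 1). Calls over all genes were 172 without A2A antagonist replicate 1, 5 and 6 without replicates 2 and 3, and 0 without replicate 4 or without dual replicate 3 (1802 and 2092 genes at an unadjusted p-value under 0.05). Levels per length and their order were as reported with the deposited FPKM. Libraries with equal replicate numbers showed no shared deviation: deviations from the group means correlated between -0.21 and -0.047, and the block called 17 genes and 0 members. Deviations sum to 0 over the 4 libraries of a group, so that such values cannot show that the libraries were unpaired. Libraries with unequal numbers correlated between -0.14 and 0.22, the highest being A2A antagonist replicate 4 with dual replicate 2. Pairing by other numbers was not tested. Depth limits Gpr34 most.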
